A study of Oryza sativa with 6 samples.

Results

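Cytochrome P450 enzymes are membrane-bound or plastid heme enzymes that, with few exceptions, insert oxygen into small molecules, and plants use many families of them to make and inactivate hormones and defence compounds. In rice leaves they act in the synthesis and inactivation of brassinosteroids, the growth steroids whose loss gives dwarf plants, in the breakdown of abscisic acid, in the allene oxide synthase step of jasmonate synthesis, in serotonin synthesis from tryptamine, and in the diterpenoid phytoalexins that rice makes after infection. The genes described here are those with a P450 name, CYP followed by a family number, a subfamily letter and a gene number, as symbol or synonym in the rice gene table. Of 39 such genes, the 5 genes of the gibberellin-modifying CYP714 family were left out, which left 34 genes in 14 families. A probe set assigned to 1 gene was found for 26 of them, among 17905 genes with such a probe set on the array. *CYP701A6* and *CYP88A5*, which encode the ent-kaurene oxidase and the ent-kaurenoic acid oxidase of gibberellin synthesis, carry P450 names outside CYP714 and were kept.

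The arrays compared leaves of wild-type (WT) rice, *Oryza sativa* var. PB1, with leaves of MADS29OX plants of the same variety, which carry an *OsMADS29* cDNA behind a ubiquitin promoter, in 3 arrays per group. All samples were leaves 3 and 4 counted from the flag leaf. *OsMADS29* is a B-sister MADS-box gene normally expressed in seeds, and the overexpressing plants were stunted, flowered early and set no seed. The sources used here do not say how many transgenic lines the 3 MADS29OX samples stand for, so the p-values measure the spread between these samples, which may in part be technical. *OsMADS29* had signals of 6.70, 6.37 and 6.64 in WT and of 2016, 1788 and 3590 in MADS29OX leaves, at least a 147-fold increase (adjusted p = 0.000150 from limma), so the transgene follows the labels. The 5 leaf mesophyll markers measured, among them *RBCS* and *RCA*, were above the floor in both groups, with summed signals of 21852 to 22259 in WT and 23519 to 31682 in MADS29OX leaves. A gene was called where it differed by 2-fold or more with a Benjamini-Hochberg adjusted p, from limma, that did not exceed 0.05. The markers did not move together: *CAB2R* (log2 fold change, MADS29OX minus WT, of 1.46) and *RCABP69* (1.09) were called higher, *PSAG* (-1.05) was called lower, *RCA* (-0.27) passed the p threshold but not the fold limit, and *RBCS* (0.35) passed neither. Their part in the results was not tested. None of the 3 anther markers and not the 1 root marker measured rose above the floor, and of 5 endosperm markers 2, *GLUA2* and *GLB*, did, with summed signals of the list of 248 to 254 in WT and 199 to 233 in MADS29OX leaves.

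Most of the 26 named P450 genes with a probe set were at or below the floor in both groups. P450 genes without such a name in the gene table were not counted, so this holds for the named genes only. The floor is a signal of 16 on the deposited linear intensity scale, below which values were raised to 16 before log2 was taken, and a gene was tested only if it exceeded the floor on at least 1 of the 6 arrays. Only 5 of the 26 genes with a probe set (19.2%) did so, namely *CYP71P1*, *CYP76M7*, *CYP85A1*, *CYP90A4* and *CYP707A5*, whereas 10045 of all 17905 genes (56.1%) did. The other 21 genes had signals between 5.16 and 12.5 on every array, and for 16 of these the highest array stayed under 8. A signal below the floor does not show that a transcript is absent, and the levels of different probe sets cannot be set against each other. The plot of all 26 genes by array shows how few points lie to the right of the floor.

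**Figure D1:**
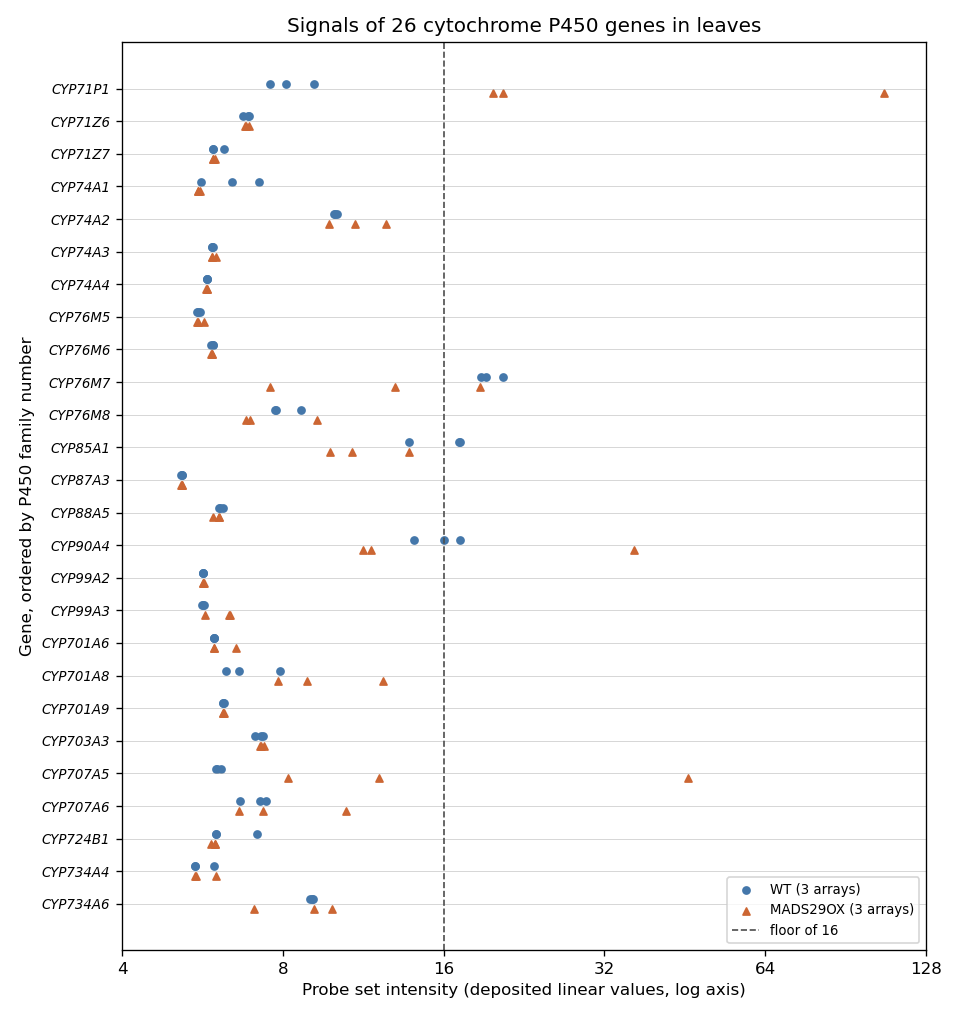
Probe set intensity (deposited linear values, log axis) of the 26 P450 genes with a probe set, ordered by family number, with 1 point per array (circles, WT; triangles, MADS29OX) and the floor of 16 as a dashed line. For 21 genes all 6 points lie below the floor, between 5.16 and 12.5, and the 5 genes with a point above it are *CYP71P1*, *CYP76M7*, *CYP85A1*, *CYP90A4* and *CYP707A5*.

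In the limma fit over all 14236 tested probe sets, 0 of the 5 tested P450 genes were called higher and 0 lower in MADS29OX leaves. Over all 10045 tested genes 507 (5.05%) were called higher and 505 (5.03%) lower, so a count of 0 among 5 genes lies near the background and is no result about the P450 genes. Nor did any of the 5 pass the adjusted p threshold without the fold limit, as 26.6% of all tested genes did, or at an unadjusted p under 0.05, as 38.9% did. The log2 fold change, MADS29OX minus WT, was above 0 for 3 genes and below 0 for 2, with a median of 0.36 against -0.01 over all tested genes. *CYP71P1* and *CYP707A5* entered the test only through MADS29OX arrays, and *CYP85A1* only through WT arrays. The filter thus fixed their signs, and the sign count and median are no result about the P450 genes. On the floored scale, groups whose arrays do not overlap were seen for 1 gene higher in MADS29OX leaves, *CYP71P1*, and for 1 lower, *CYP76M7*. Among all tested genes 20.5% were higher and 25.4% lower on every MADS29OX array on that scale. The deposited signals of *CYP707A5* did not overlap either, at 5.99 to 6.12 in WT and 8.18 to 45.9 in MADS29OX leaves. The share of all genes that separate without the floor was not counted.

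*CYP71P1* (gene 4351945) encodes tryptamine hydroxylase, the enzyme that makes serotonin and whose loss gives the Sekiguchi lesion mutant of rice. Its signals were 8.10, 9.16 and 7.57 on the WT arrays, all below the floor, and 20.7, 19.8 and 107 on the MADS29OX arrays, all above it. Every MADS29OX array was thus higher than every WT array, but replicates 1 and 2 lay just above the floor and replicate 3 stood far above both. With the WT arrays at the floor the increase was at least 2.21-fold, a log2 fold change of 1.14 (standard error 0.67, 95% confidence interval -0.49 to 2.78), and it did not pass the test (limma, adjusted p = 0.263). The 2-sided exact permutation p of 0.1 was the smallest possible for 3 and 3 arrays. Leaving out MADS29OX replicate 3, with WT still at the floor, gave a log2 fold change of at least 0.34 (adjusted p = 0.0415). That passed the p threshold but not the fold limit on the floored scale. The fit with no floor, over all 6 arrays, gave 2.10 (adjusted p = 0.365). Another fit used array weights, which let whole arrays count more or less. MADS29OX replicate 3 had a weight of 0.792 there, against 0.294 and 0.191 for the other MADS29OX arrays. In it *CYP71P1* was called higher (1.84, adjusted p = 0.0353 from limma). In the fits on the floored scale all WT arrays of *CYP71P1* equal 16 and have no spread, and the filter fixed the sign. Those p-values thus do not measure the spread in WT and give no support for an increase.
A further probe set assigned to *CYP71P1* was at 6.03 to 6.12 on all 6 arrays, so the difference rests on 1 of 2 probe sets. *TDC2*, which encodes a tryptophan decarboxylase that supplies tryptamine and which was looked up after the values of *CYP71P1* were seen, had signals of 16.4, 15.2 and 19.8 in WT and 15.1, 22.9 and 11.3 in MADS29OX leaves. Those groups overlapped, with a log2 fold change of 0.06 (95% confidence interval -0.37 to 0.49, adjusted p = 0.828) whose sign turned with no floor (-0.11).

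*CYP76M7* (gene 4341447) belongs to a subfamily whose members hydroxylate diterpenes on the way to phytocassanes and oryzalexins. The gene table places its entry on chromosome 6, away from the chromosome 2 run that holds *CYP76M5*, *CYP76M6* and *CYP76M8*, and gives the entry more than 1 locus name, so it is uncertain which gene the probe set measures. Its signals were 18.8, 19.2 and 20.7 in WT leaves, and 13.0, 7.58 and 18.7 in MADS29OX leaves. WT was above the floor on all 3 arrays and MADS29OX on 1, and the highest MADS29OX array lay just under the lowest WT array. The log2 fold change of -0.21 (standard error 0.10, 95% confidence interval -0.45 to 0.03) did not pass the test (adjusted p = 0.171 from limma). The floor lies close to the WT signal and limits the fall that this scale can show. With no floor the value was -0.67 (adjusted p = 0.650). Here as for the other genes, fewer cells of a type in the leaf and less RNA per cell cannot be told apart.

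The 9 other genes placed with the diterpenoid phytoalexins were below the floor in WT and MADS29OX leaves alike. Among them, *CYP76M5*, *CYP76M8*, *CYP71Z6*, *CYP71Z7* and *CYP76M6*, lie, by the gene table's order, in 1 run of 10 protein-coding genes on chromosome 2 together with the diterpene cyclase genes *CPS2*, *KSL7*, *KSL5* and *KSL6*. Of these 10 genes 9 had a probe set, and none exceeded 10.7 on any array. The signals of *CYP76M5* ranged from 5.52 to 5.70, those of *CYP76M6* from 5.88 to 5.93, those of *CYP76M8* from 6.83 to 9.28, those of *CYP71Z6* from 6.74 to 6.93 and those of *CYP71Z7* from 5.91 to 6.22. The highest value of the run, 10.7, was that of *KSL5* on MADS29OX replicate 2. A like run on chromosome 4 holds *CYP99A3* and *CYP99A2*, which act in momilactone synthesis, with *CPS4*, *KSL4* and *MAS*, the momilactone A synthase gene. In that run 5 of 6 protein-coding genes had a probe set, and the highest signal was 6.37, of *CYP99A3* on MADS29OX replicate 1. *CYP701A8*, an ent-kaurene oxidase paralogue, was at 6.62, 7.89 and 6.26 in WT and 7.84, 12.3 and 8.88 in MADS29OX leaves, and *CYP701A9* at 6.17 to 6.20 throughout. Of 8 diterpenoid genes that are not P450s found in the gene table, 7 had a probe set and 0 were above the floor, so neither gene run gave a signal above the floor in either group.

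Brassinosteroid synthesis was represented by 6 P450 genes, of which 3 had a probe set and 2 were tested. *CYP85A1* (gene 4333399) encodes the brassinosteroid oxidase that makes castasterone and whose loss gives the brd dwarf. Its signals were 17.1, 17.2 and 13.8 in WT leaves, and 13.8, 10.8 and 9.80 in MADS29OX leaves. The gene exceeded the floor on 2 WT arrays and on no MADS29OX array, and the groups met at WT replicate 3 and MADS29OX replicate 1. On the floored scale the log2 fold change was -0.06 (standard error 0.07, 95% confidence interval -0.24 to 0.11, adjusted p = 0.549 from limma), and with no floor it was -0.49 (adjusted p = 0.324).
*CYP90A4* (gene 4351461), also named *CPD2*, is 1 of a pair of rice genes related to the Arabidopsis steroid oxidase gene CPD. In WT leaves it had signals of 14.1, 17.2 and 16.05, and in MADS29OX leaves signals of 11.7, 36.4 and 11.3. MADS29OX replicate 2 was the highest of the 6 arrays and the other MADS29OX arrays were the lowest, so the groups overlapped. The log2 fold change of 0.36 (standard error 0.33, 95% confidence interval -0.46 to 1.18, adjusted p = 0.471) turned to -0.035 without MADS29OX replicate 2 (adjusted p = 0.745).
*CYP724B1* (*D11*), of an early hydroxylation step, was at 5.87 to 7.16 on all arrays. *CYP90A3* (*CPD1*), *CYP90B2* (*DWARF4*) and *CYP90D2* (*D2*) had no probe set in the table used here. Of the 4 CYP734A genes, whose products inactivate brassinosteroids, *CYP734A4* (5.48 to 6.01) and *CYP734A6* (7.07 to 9.91) were below the floor, and *CYP734A2* and *CYP734A5* had no probe set.
Among 9 tested genes of brassinosteroid signalling, 0 were called higher and 0 lower, with a median log2 fold change of -0.10, and 5.05% and 5.03% of all tested genes were, so this count lies near the background. The receptor gene *BRI1* had signals of 22.9, 20.7 and 22.6 in WT and 13.2, 20.2 and 16.7 in MADS29OX leaves. All its MADS29OX arrays were lower, with a log2 fold change of -0.33 (adjusted p = 0.0897). *GSK1*, a kinase gene of the GSK family that restrains the pathway, had one of -0.26 (adjusted p = 0.135). *BZR2*, which encodes a transcription factor of the BZR family, passed the p threshold but not the fold limit (0.67, adjusted p = 0.0179), with 25.4, 20.7 and 26.5 in WT and 34.2, 42.6 and 38.6 in MADS29OX leaves. *BRI1* and *BZR2* were named after their values were seen.

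*CYP707A5* (gene 9269675, also *ABA8OX1*) encodes an abscisic acid hydroxylase, the first enzyme of abscisic acid breakdown. Its signals were 5.99, 6.12 and 6.02 in WT leaves, and 8.18, 45.9 and 12.1 in MADS29OX leaves. Only MADS29OX replicate 2 was above the floor, and the gene could not be tested without that array. On the floored scale, where the other MADS29OX arrays equal WT, the log2 fold change was 0.51 (standard error 0.42, 95% confidence interval -0.53 to 1.55, adjusted p = 0.431 from limma). With no floor it was 1.45 (adjusted p = 0.579), and with array weights 0.23 (adjusted p = 0.527).
*CYP707A6* was at 7.43, 7.26 and 6.65 in WT and at 7.34, 10.5 and 6.61 in MADS29OX leaves, all below the floor, and *CYP707A7* had no probe set. The 1 gene of abscisic acid synthesis tested, *ZEP*, which encodes zeaxanthin epoxidase, had signals of 131, 122 and 134 in WT and of 139, 256 and 182 in MADS29OX leaves. Its MADS29OX arrays were all higher, and again replicate 2 was the highest, but the log2 fold change of 0.53 did not pass (95% confidence interval -0.02 to 1.08, adjusted p = 0.139). It was 0.30 without MADS29OX replicate 2 (adjusted p = 0.142) and 0.74 without MADS29OX replicate 1 (adjusted p = 0.0304), and with array weights 0.49 (adjusted p = 0.0469), all under 2-fold.

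**Figure D2:**
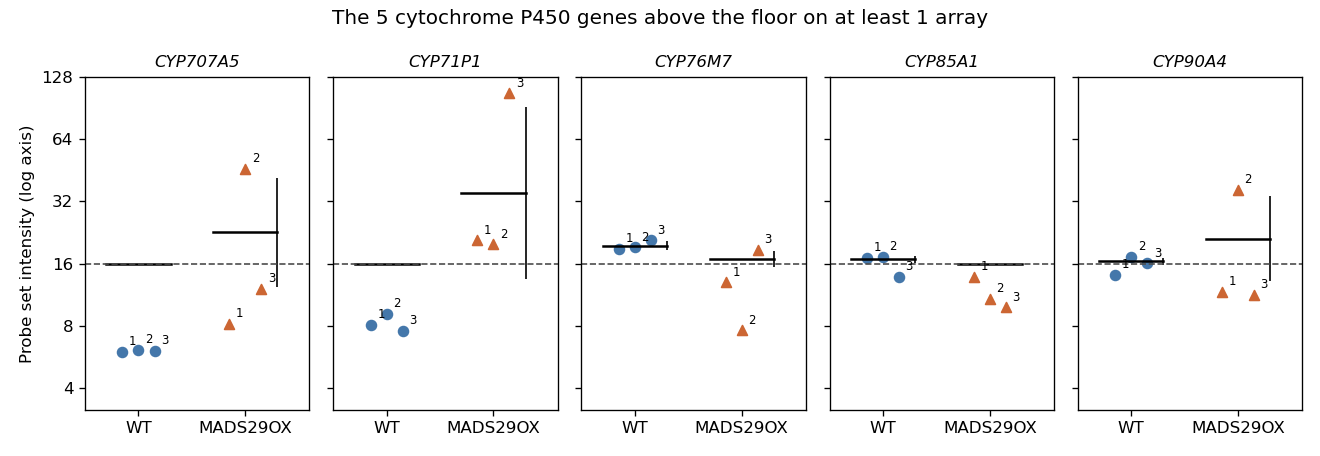
Probe set intensity (log axis) of the 5 P450 genes above the floor on at least 1 array, with 1 point per array numbered by replicate (circles, WT; triangles, MADS29OX), a bar at the mean of the floored log2 values, a vertical line for 1 SD of these values on either side (n = 3) and the floor of 16 as a dashed line. MADS29OX replicate 3 carries *CYP71P1* at 107, and MADS29OX replicate 2 carries *CYP707A5* at 45.9 and *CYP90A4* at 36.4.

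On the floored scale, single arrays largely set the size of the values of *CYP71P1* (MADS29OX replicate 3) and of *CYP707A5* and *CYP90A4* (MADS29OX replicate 2). For *CYP71P1*, the other MADS29OX arrays were also above the floor and every WT array was below it. Over the 7011 genes with a mean signal of at least 32, log2 values had a median SD of 0.08 in WT and 0.25 in MADS29OX leaves. For the 5 tested P450 genes the median SDs were 0.056 in WT and 0.685 in MADS29OX leaves. Those values cannot be set against each other, because arrays at the floor have no spread. None of the 5 tested P450 genes had a mean signal of at least 32, the highest being 28.8, against 69.8% of all tested genes.

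Of the jasmonate genes, the 4 CYP74A genes for allene oxide synthase, which makes the precursor of the jasmonate ring, were all below the floor. *CYP74A2* (*AOS2*) had signals of 10.01, 10.1 and 9.97 in WT and of 9.77, 10.9 and 12.5 in MADS29OX leaves. *CYP74A1* (*AOS1*) was at 5.62, 7.22 and 6.43 in WT and 5.56, 5.55 and 5.59 in MADS29OX leaves. *CYP74A3* and *CYP74A4*, which are next to each other in the gene table, ranged from 5.89 to 5.99 and from 5.75 to 5.78, with no separation of the groups.
Among 9 tested genes of the other jasmonate enzymes 0 were called higher and 1 lower, with a median log2 fold change of 0.07, and 1 of 9 is near the 10.1% of all tested genes called in either direction. The lower gene was *JAR1*, which encodes the enzyme that joins jasmonate to isoleucine. Its signals were 155, 155 and 144 in WT and 57.7, 57.2 and 60.1 in MADS29OX leaves. All MADS29OX arrays were far lower, by -1.37 on the log2 scale with a standard error of 0.08 and an adjusted p of 0.000296. *AOC*, for the allene oxide cyclase that acts directly after allene oxide synthase, was at 113 to 119 in WT and 120 to 131 in MADS29OX leaves, with a log2 fold change of 0.13 (95% confidence interval -0.07 to 0.32, adjusted p = 0.291). *LOX8*, a lipoxygenase gene, was below the floor on all WT arrays and at 79.8, 31.0 and 249 in MADS29OX leaves, at least 5.32-fold higher. With these unequal MADS29OX arrays it just missed the threshold (adjusted p = 0.0582 from limma). *LOX8* entered the test only through MADS29OX arrays, so the filter fixed its sign. *AOC* and *LOX8* were named after their values were seen.

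The remaining P450 genes stood alone in their families or had gibberellin roles. *CYP701A6* (5.94 to 6.53) and *CYP88A5* (5.93 to 6.17) were below the floor on all arrays, and a second gene entry named *CYP701A19*, a name that the *CYP701A6* entry shares, had no probe set. *CYP703A3*, which encodes a fatty acid hydroxylase of anther cuticle and pollen wall formation, was at 7.10 to 7.39. *CYP87A3*, known from rice as an auxin-induced gene, was at 5.16 to 5.18. *CYP78A11*, the *PLA1* gene that sets the pace of leaf initiation, had no probe set. By family, the 5 tested genes belonged to 5 families (CYP71, CYP76, CYP85, CYP90 and CYP707), and the 8 other families with a probe set were below the floor throughout.

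Other genes of the pathways in which plant P450s act were called in both directions. Over the lists with a match, 61 genes had a probe set and 33 were tested, of which 4 were called higher and 2 lower, against 10.1% of all tested genes in either direction. No gene matched the lists of P450 electron donors or of cutin and wax genes. In the phenylpropanoid and flavonoid list, whose own P450s are not among the 34 genes, 3 of 12 tested genes were higher and 1 lower. Over all tested genes 5.05% were called higher and 5.03% lower, and the difference from these shares was not tested. *4CL4*, a 4-coumarate:CoA ligase gene, rose from 66.2, 63.5 and 69.5 to 145, 197 and 179, a 2.60-fold increase (adjusted p = 0.00147 from limma). *CHI*, the chalcone isomerase gene, was below the floor on all WT arrays and at 26.1, 41.9 and 31.0 in MADS29OX leaves. It was at least 2.02-fold higher (adjusted p = 0.0109 from limma), close to the fold limit. *CHI* entered the test only through MADS29OX arrays, so the filter fixed its sign. Its floored WT arrays have no spread, and the p-value does not measure the spread in WT. *HCT1*, a hydroxycinnamoyl transferase gene, was the other higher gene (2.04-fold, adjusted p = 0.0240). It too was close to the fold limit, and its call was not followed over the alternatives. *CAD3*, of the cinnamyl alcohol dehydrogenase family, had signals of 2414, 2435 and 2340 in WT and of 446, 828 and 481 in MADS29OX leaves, which is -2.09 on the log2 scale with a standard error of 0.24 (adjusted p = 0.00277).
*D14*, which encodes the strigolactone receptor, was the 1 tested gene of its list. It rose from 795, 808 and 580 to 2004, 1923 and 2132, a 2.80-fold increase (adjusted p = 0.00178). *CKX11*, a cytokinin oxidase gene and the 1 tested gene of cytokinin synthesis and breakdown, had a log2 fold change of -0.39 (95% confidence interval -0.90 to 0.11, adjusted p = 0.218), which was -0.22 without MADS29OX replicate 2 (adjusted p = 0.365) and -0.55 without MADS29OX replicate 3 (adjusted p = 0.119).

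**Figure D3:**
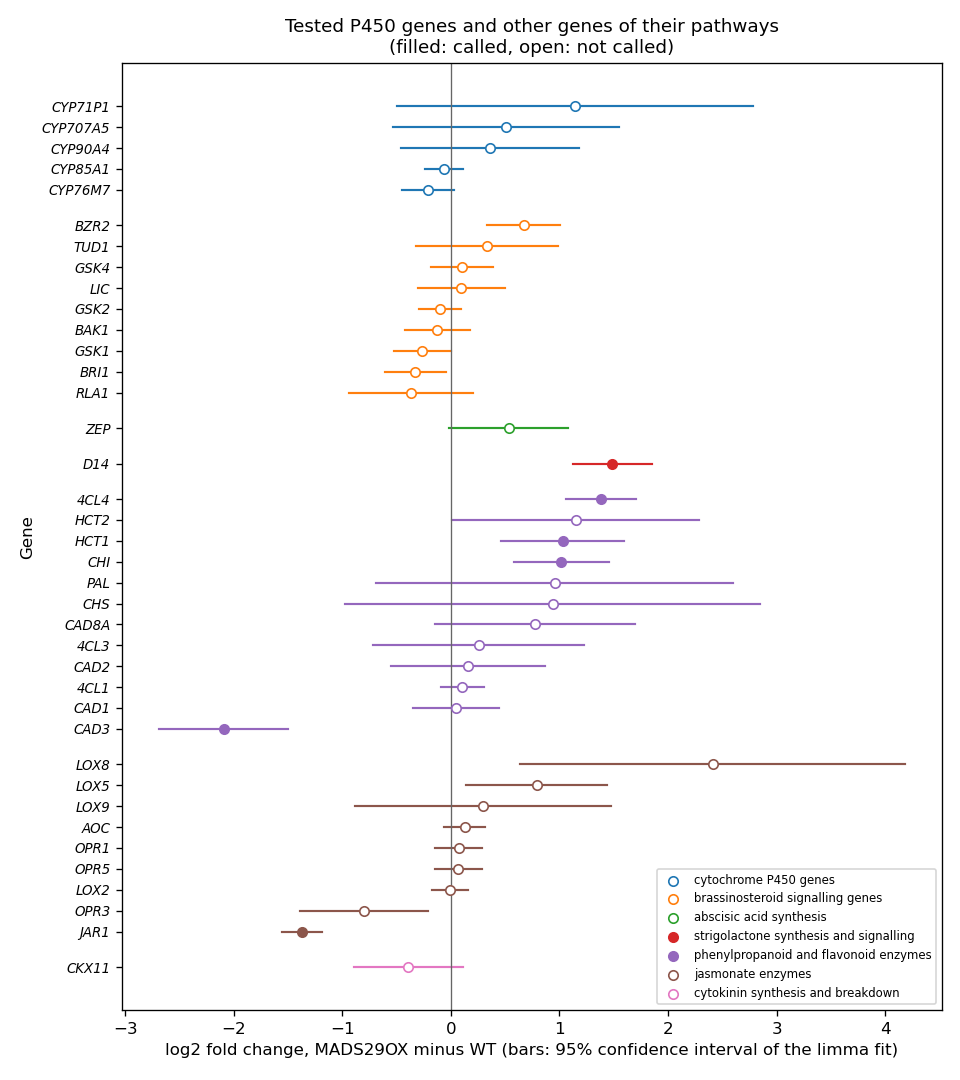
Log2 fold change, MADS29OX minus WT on the floored scale, of the 5 tested P450 genes and of the 33 tested genes of the other lists, with the 95% confidence interval of the limma fit (3 arrays per group). The intervals of all 5 P450 genes include 0, that of *CYP71P1* being -0.49 to 2.78, and the filled points mark the called genes *D14*, *4CL4*, *HCT1*, *CHI*, *CAD3* and *JAR1*.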

How the data were processed

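Leaf RNA of 3 WT and 3 MADS29OX samples was measured on 6 Affymetrix rice arrays. Each array has 57381 intensities, which the authors deposited as linear values per probe set; how they were summarized and normalized is not given in the sources used here. Array medians lay between 5.95 and 6.00, and no scaling was added. These medians lie below the floor set here, so they do not show that the signals above it share a scale. After removal of 187 control and reporter probe sets, a floor of 16 was set and log2 computed. Probe sets exceeding the floor on at least 1 array (14236) entered a linear model with group as its only term (limma 3.58.1, lmFit and eBayes, under R 4.3.3), and p-values were adjusted over all of them by Benjamini-Hochberg. The fit was tested on simulated data.

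Probe sets were matched to genes by the platform annotation (1 gene for 22436 probe sets, several for 95, none listed for 34663), and names were updated through the ASM3414082v1 gene table, which held all 17905 genes (Python 3.11.15). The build behind the array annotation is not known, so no coordinates are given. For each gene the probe set of highest mean signal over 6 arrays was used, also when an array was left out. For 4 P450 genes that probe set ends in _x_at or _s_at and can cross-hybridize.

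The genes and lists were chosen with earlier results of these data known. Named were *OsMADS29*, every tested P450 gene, and in each other list up to 3 called genes by adjusted p or else the gene with the highest mean; *TDC2*, *BRI1*, *BZR2*, *AOC*, *LOX8*, *HCT1* and *KSL5* are named besides. *TRAB1* and a white stripe leaf gene, which matched through a shared name, were removed from 2 lists. The alternatives were other floors, filters, scalings, adjustments, priors, weights, probe set choices, a replicate block and the omission of each array.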

Additional observations from a re-analysis of the deposited data

How the results depend on the processing

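Over 20 alternatives, the number of P450 genes called lower stayed at 0, and the number called higher stayed at 0 in all but the fit with array weights, in which it was 1 (*CYP71P1*, log2 fold change of 1.84). With a minimum mean signal of 32 no P450 gene could be tested. With no floor, an alternative added after the data were seen, all 26 could be tested and 0 were called. Of them 2, *CYP85A1* and *CYP71P1*, had an unadjusted p under 0.05 from limma. The share of all genes under that limit with no floor was not counted, so this count is no result about the P450 genes. A floor of 8 was also added after the data were seen. Leaving out each array gave 0 to 0 called P450 genes in either direction. *CYP71P1* ran from 0.34 to 1.56 when 1 array was left out and from 0.34 to 2.10 over the alternatives in which it was tested. *CYP90A4* reversed to -0.035 without MADS29OX replicate 2 and ran from -0.035 to 0.56 over the arrays left out. *TDC2* was at -0.043 with log2 of the value plus 16 and at -0.11 with no floor and with the floor of 8, and ran from -0.11 to 0.16 over the arrays left out. With these exceptions, the 5 P450 genes kept their direction and stayed uncalled where they were tested. *CYP71P1* also passed the p threshold, but not the fold limit, without MADS29OX replicate 3 (limma, adjusted p = 0.0415). Here and with array weights its WT arrays were all raised to 16 and had no spread, so these p-values give no support for an increase.

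Over all genes, 1148 were higher and 1519 lower without the fold limit, 245 and 310 with the Benjamini-Yekutieli adjustment, 191 and 240 with log2 of the value plus 16, and 144 and 206 when all probe sets were tested on the floored scale. With no floor 305 were higher, against 507 with the floor of 16. Leaving out 1 array gave 359 to 614 higher and 422 to 610 lower genes. The calls of *D14* (adjusted p = 0.0504) and *CAD3* (adjusted p = 0.0776) were lost when all probe sets were tested. That of *CHI* was lost in 5 of 19 alternatives, including without WT replicate 2 (adjusted p = 0.0512) and without MADS29OX replicate 2 (0.83, under the fold limit), and the cause of these changes was not tested.

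Deviations of same-numbered arrays from their group means correlated at 0.03, -0.04 and -0.13, and those of differently numbered arrays at -0.10 to 0.18. No pairing by replicate number was seen, but with 3 arrays per group these values cannot decide whether samples were paired. With the replicate block 0 P450 genes were called higher and 0 lower, and over all genes 465 were higher and 481 lower. The number of arrays and the closeness of the P450 signals to the floor limit what could be seen.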
